A study of Mus musculus with 16 samples.

Results

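The subject is the capture of mRNA by an antibody against N6-methyladenosine (m6A) in adipose tissue of cold-exposed mice that lacked Mettl3 in adipocytes. Genes were chosen by input level alone: those at 1 RPKM (reads per kilobase of transcript, scaled to library size) or more in both input libraries of the knockout, which kept 11257 of the 17883 genes of the matrix. For each gene the m6A enrichment is the log2 ratio of RPKM + 1 in the m6A libraries over RPKM + 1 in the input libraries, so a positive value means more of the gene in the captured RNA than in the RNA it was captured from. Just inside the limit stood Ddah1, at 1.00 and 1.16 RPKM in the knockout inputs, and just outside stood Zfp334, at 0.999 and 1.35 RPKM.

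The series holds 16 libraries in 8 groups of 2, and 12 of them are used here. The knockout in the cold (cKO cold) carried Mettl3 flox/flox with Adipoq-Cre +/-, in which the adiponectin promoter drives Cre in adipocytes, so other cells of the tissue keep the gene. The wild type in the cold (WT cold) and the untreated wild type (WT RT) carried Mettl3 flox/flox without Cre. All mice were C57BL/6 and 8 weeks old, and the cold groups were housed individually at 4 °C for 7 days. Each condition has 2 input and 2 m6A libraries. The labels name the tissue only as adipose tissue and leave it unsaid whether the replicates were separate animals. The p-values therefore measure only how far these libraries spread, which may be technical. Library codes of WT RT run in a different series from those of the cold groups, and the effects of temperature and of that series cannot be told apart.

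As background, m6A is an internal mark of mRNA, laid down in the nucleus mainly by a complex in which METTL3 is the catalytic subunit and METTL14 its partner. ALKBH5 and FTO remove it, and proteins such as the YTH family bind it and steer splicing, export, translation and decay of the marked mRNA. It lies mostly in long exons and near stop codons, and short, stable housekeeping mRNAs carry little. In cold-exposed white fat, adipocytes take on features of brown fat, with mitochondria and UCP1, a change called beiging, and the series concerns the part of METTL3 and Klf9 mRNA in it.

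The cKO cold libraries held 5061751 and 5303991 recovered reads in the m6A fraction and 4511639 and 3895031 in the input, within the range of 3895031 to 8673393 over the 12 libraries. Mettl3 (ENSMUSG00000022160, chr14:52294841-52308741, GRCm38) stood at 3.83 and 1.90 RPKM in the cKO cold inputs, against 5.24 and 3.66 RPKM in the WT cold inputs. The groups overlapped, and the log2 difference of -0.53 ± 0.34 (SE, n = 2 libraries each) missed the threshold (adjusted p = 0.241, limma). The deleted part of the gene is not given in the labels, and the whole tissue includes cells without Cre, so the level over the gene does not measure the loss in adipocytes. All 20 adipocyte markers of the list used were above 0 in every library. They summed to 11503 and 12252 RPKM in the cKO cold m6A libraries and 15274 and 15964 in the cKO cold inputs. Markers of T and B cells summed to 8.67 to 13.5 RPKM in the 4 cKO cold libraries and 2.36 to 4.05 in WT cold, and to 983 to 1049 RPKM in the WT RT libraries. In bulk tissue, fewer cells of a type and less RNA per cell cannot be told apart.

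Capture was selective in the cold knockout. Of the 11257 genes, 1304 (11.6%) were higher in the m6A libraries than in the input and 4533 (40.3%) were lower, at an adjusted p under 0.05 (limma, 12 libraries, Benjamini-Hochberg). The remaining 5420 were not called. All called genes had the same sign in both replicate pairs, but the calls were made on these same libraries, so this adds no support. The log2 ratios of the 2 pairs correlated at Pearson's r = 0.870 over the 11257 genes, which are not independent replicates. Enrichment reached 1 or more for 486 of the higher genes and 2 or more for 38, while 2414 of the lower genes were at -1 or less and 240 at -2 or less.

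The balance of higher and lower calls hung on how the libraries were scaled. The median gene stood at -0.40 in the deposited values, against -0.17 in WT cold and -0.31 in WT RT. Lars2, the mitochondrial leucyl-tRNA synthetase gene, took 27.8 and 25.8% of the reads of the cKO cold m6A libraries and 8.92 and 8.52% of the input reads. Its level was 71269 and 66124 RPKM in the m6A libraries and 22893 and 21882 RPKM in the inputs, a log2 enrichment of 1.62 ± 0.26 (SE, limma adjusted p = 0.000725). WT cold had a like share, 25.3 and 24.3% in m6A libraries and 7.74 and 9.87% in inputs. WT RT had a smaller one, 15.2 and 15.4% in m6A libraries and 2.28 and 3.02% in inputs. The part of Lars2 in the different medians of the 3 conditions was not tested. Whether the reads counted for Lars2 came from its mRNA was not tested. RPKM values are shares of a library, so a gene of this size lowers the shares of all others. Median-ratio scaling put the median gene at -0.03, and 2474 genes (22%) were then higher and 2635 (23.4%) lower. List counts are to be read against 11.6% higher and 40.3% lower as deposited and 22% higher and 23.4% lower with median-ratio scaling. A loss of m6A shared by all mRNAs could go unseen in such ratios, which was not tested.

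**Figure D1:**
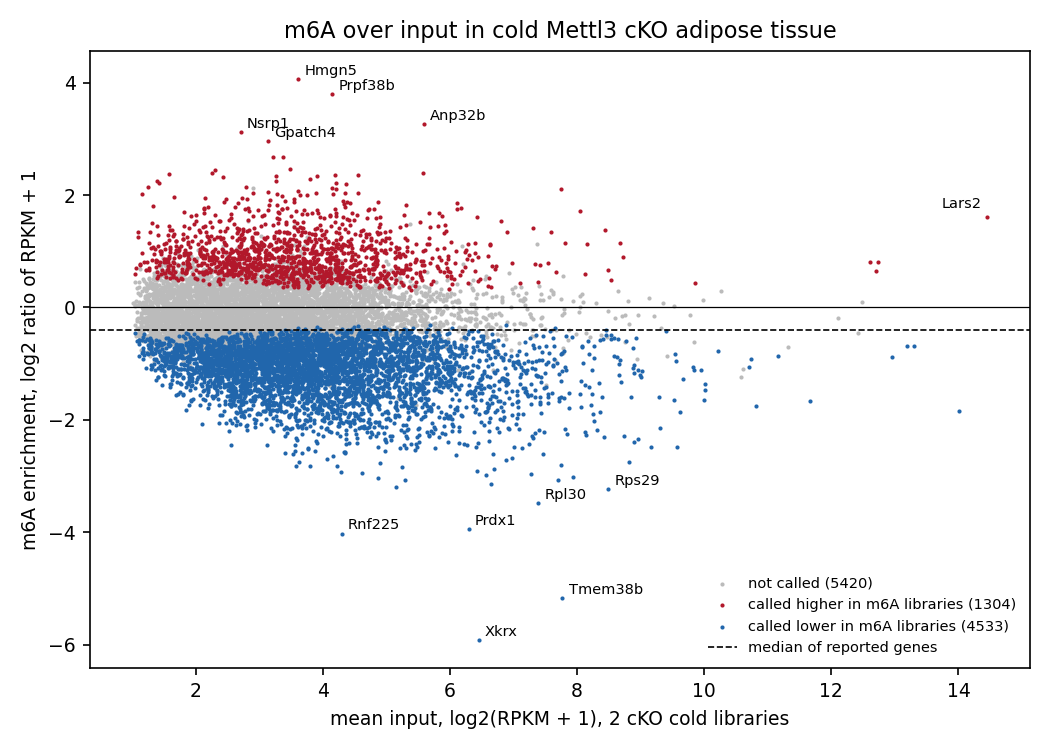
Each point is 1 of 11257 genes in the cKO cold libraries, with its mean input level on the x axis, log2(RPKM + 1), and its log2 m6A enrichment on the y axis. Red points (1304) were called higher in the m6A libraries, blue points (4533) lower, grey points not called. The dashed line is the median of -0.40, and Lars2 has the highest input value.

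Hmgn5 and Prpf38b headed the genes captured by the antibody. Among called genes with a mean input of 5 RPKM or more, Hmgn5, a nucleosome-binding protein gene (chrX:109004537-109013380, GRCm38), had the highest enrichment. It stood at 199.8 and 208 RPKM in the m6A libraries, against 10.4 and 12.1 RPKM in the inputs. Its log2 enrichment was 4.07 ± 0.15 (SE, n = 2 libraries each, limma adjusted p = 7.82e-07). Prpf38b, a spliceosome gene (chr3:108902805-108911729), had 252 and 237 RPKM in m6A libraries and 18.2 and 15.1 RPKM in inputs, or 3.80 ± 0.18 (limma adjusted p = 2.10e-06). For each of these genes both m6A libraries lay far above both inputs, as their choice by high enrichment in these libraries favours.

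Anp32b, a histone chaperone gene, followed with 430.2 and 489 RPKM in m6A libraries and 44.8 and 49.4 RPKM in inputs (log2 3.26 ± 0.12). Nsrp1, a regulator of splicing in nuclear speckles, had 55.5 and 55.5 RPKM in m6A libraries and 6.12 and 4.95 RPKM in inputs (log2 3.12 ± 0.16). Snrnp70, the U1 snRNP protein gene, had 247 and 247 RPKM in m6A libraries and 47.01 and 46.01 RPKM in inputs (log2 2.38 ± 0.11). For each gene the m6A and input libraries did not overlap, which the choice of genes favours here too. Also among the 12 highest were Gpatch4 at 2.96, Ppig at 2.67, Arglu1 at 2.46, Rbm25 at 2.36 and Pnn at 2.35. Ppig (a cyclophilin with an arginine-serine tail), Arglu1, Rbm25 and Pnn (pinin) encode nuclear proteins tied to splicing.

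Basp1 and Gas1, the other two of the 12, had uneven inputs. Basp1, a membrane-bound signalling protein gene, had 64.2 and 54.1 RPKM in m6A libraries and 13.5 and 5.12 RPKM in inputs (log2 2.67 ± 0.34). Gas1, a hedgehog co-receptor gene, had 51.7 and 30.5 RPKM in m6A libraries and 13.8 and 3.33 RPKM in inputs (log2 2.35 ± 0.47). Replicate 1 was the higher input in both genes, and the m6A and input libraries did not overlap. All 12 were also called higher in WT cold, where Hmgn5 stood at 3.89, Prpf38b at 3.30 and Basp1 at 1.62.

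At the other end stood genes that the antibody left behind. Xkrx, a member of the XK family of membrane proteins (chrX:134149037-134185497, GRCm38), had 0.412 and 0.393 RPKM in the m6A libraries, against 109.9 and 63.01 RPKM in the inputs (log2 -5.91 ± 0.57, limma adjusted p = 3.24e-05). Tmem38b, an ion channel of the endoplasmic reticulum (chr4:53825988-53862019), had 5.52 and 4.48 RPKM in m6A libraries and 252 and 182 RPKM in inputs (log2 -5.17 ± 0.35). Rnf225, a RING finger gene (chr7:12927416-12931072), had 0.244 and 0.175 RPKM in m6A libraries and 18.7 and 18.5 RPKM in inputs (log2 -4.02 ± 0.22). In each of these 3 genes both m6A libraries lay far below both inputs, as their choice by low enrichment favours.

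Prdx1, a peroxide-scavenging enzyme gene, had 3.36 and 5.01 RPKM in m6A libraries and 80.3 and 74.7 RPKM in inputs (log2 -3.94 ± 0.16). The ribosomal protein genes Rpl30, Rps29 and Rpl9 stood at -3.47, -3.22 and -3.19, and the respiratory chain genes Uqcrfs1 (the Rieske protein of complex III) and Cox6c (complex IV) at -3.14 and -3.07. Arl6ip1 (-3.06), a protein that shapes the endoplasmic reticulum, Olfr774 (-3.03), listed as an olfactory receptor gene, and Ifi27l2a (-3.02), an interferon-induced gene, completed the 12 lowest, all of them called lower in WT cold too. Ribosomal protein genes have many near-identical pseudogene copies and the authors' counting is not given, so the split of their reads is uncertain, as is that of genes that overlap another.

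**Figure D2:**
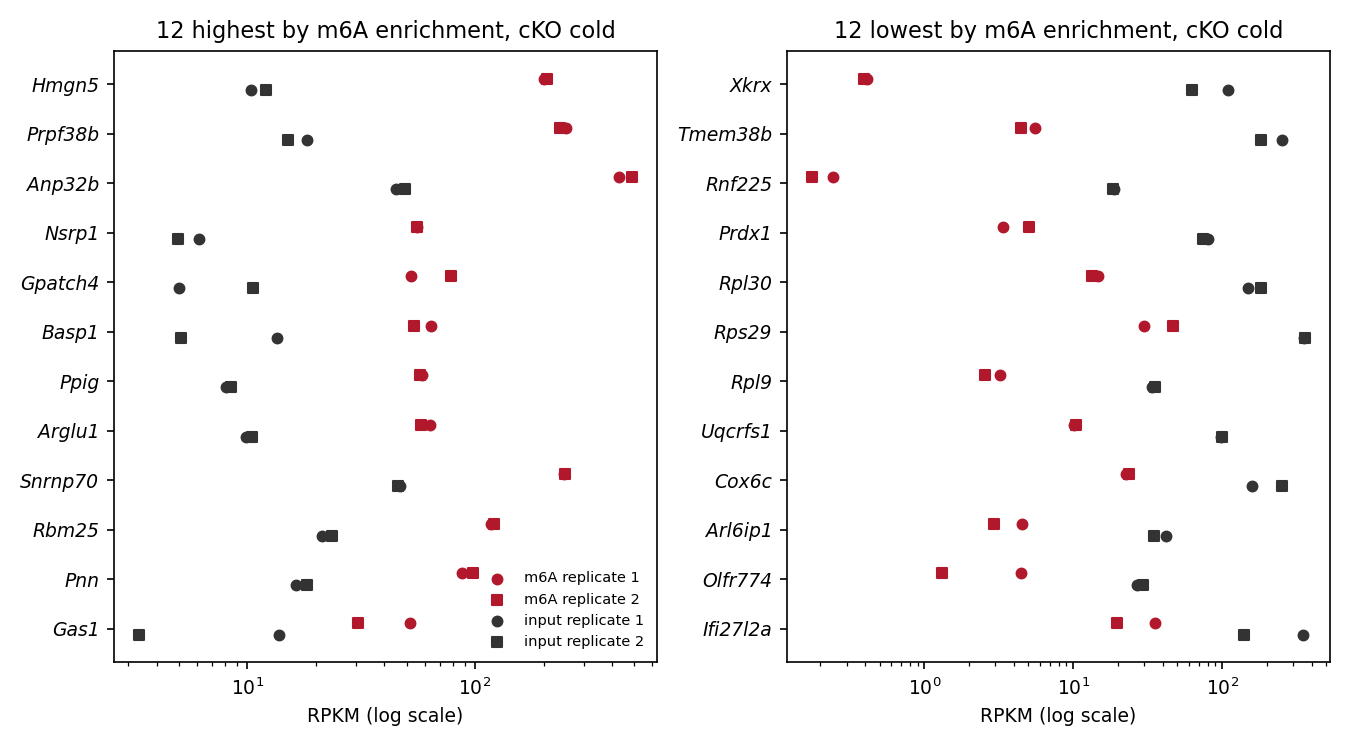
The left panel plots RPKM on a log axis for the 12 genes with the highest m6A enrichment in cKO cold, the right panel for the 12 lowest, with m6A libraries in red and inputs in black, circles for replicate 1 and squares for replicate 2. In the left panel the m6A points lie right of the inputs, and in the right panel left of them, without overlap in any of the 24 genes. The genes were chosen by these same values, so the lack of overlap follows largely from the choice.

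The m6A machinery itself was captured unevenly in the knockout. Of 12 genes of the writer complex and related methyltransferases, 4 were higher and 3 lower, with a median of -0.01 (under median-ratio scaling 5 higher and 1 lower, median 0.37). Zc3h13, which anchors the complex in the nucleus, had 37.2 and 38.8 RPKM in m6A libraries and 7.18 and 10.2 RPKM in inputs (log2 2.02 ± 0.16, limma adjusted p = 1.09e-05). Rbm15, which guides the complex to RNA, stood at 0.95 ± 0.15. Mettl5, which methylates ribosomal RNA, had 3.06 and 1.56 RPKM in m6A libraries and 7.10 and 6.10 RPKM in inputs (log2 -1.23 ± 0.25). Zcchc4, another ribosomal RNA methyltransferase, stood at -0.67 ± 0.21; it lost its call without cKO cold input replicate 2 (log2 -0.61, limma adjusted p = 0.0883) and without cKO cold m6A replicate 2 (log2 -0.46, limma adjusted p = 0.167), and with median-ratio scaling.

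Mettl3 itself had 5.37 and 2.33 RPKM in m6A libraries and 3.83 and 1.90 RPKM in inputs, a log2 enrichment of 0.30 ± 0.34 (limma adjusted p = 0.503). Mettl14 had 4.32 and 3.65 RPKM in m6A libraries and 3.72 and 5.06 RPKM in inputs (-0.10 ± 0.21, limma adjusted p = 0.708). For both genes the m6A and input libraries overlapped.

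Among 14 erasers and readers, 2 were higher and 4 lower (median -0.26), and with median-ratio scaling 6 were higher and 1 lower (median 0.14). Ythdc1, the nuclear reader, had 62.6 and 65.9 RPKM in m6A libraries and 18.6 and 24.2 RPKM in inputs (log2 1.55 ± 0.16). Prrc2a, a reader described in the nervous system, had 118 and 130.2 RPKM in m6A libraries and 59.5 and 58.4 RPKM in inputs (log2 1.06 ± 0.12). Elavl1, a stabiliser of AU-rich mRNAs, had 5.64 and 5.32 RPKM in m6A libraries and 13.8 and 13.6 RPKM in inputs (log2 -1.18 ± 0.14). The eraser gene Alkbh5 stood at -0.70 ± 0.13 (limma adjusted p = 0.0016), and at -0.28 with median-ratio scaling, no longer called.

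Chromatin regulators, whose transcripts were long (median 8144.5 bases, against 3010 for all genes), were captured preferentially. Of 38 reported genes, 24 were higher and 3 lower, against a background of 11.6% and 40.3% of all genes, with a median of 0.59 (under median-ratio scaling 30 higher and 1 lower). The 3 lower genes included Med13 of the Mediator complex, which had 10.8 and 9.72 RPKM in m6A libraries and 21.04 and 18.4 RPKM in inputs (log2 -0.88 ± 0.15, limma adjusted p = 0.000789), and Kdm6a (-0.70 ± 0.20), a histone H3 demethylase, which was at -0.33 and not called with median-ratio scaling and lost its call without cKO cold input replicate 1 (log2 -0.43, limma adjusted p = 0.101) and without cKO cold m6A replicate 1 (log2 -0.71, limma adjusted p = 0.0511) and without cKO cold m6A replicate 2 (log2 -0.69, limma adjusted p = 0.0593).

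Immediate early genes, the first to respond to stimulation, had the highest median of the lists, 0.73, with 7 of 19 higher and 0 lower, and 8 and 0 under median-ratio scaling. Ier2 had 25.8 and 21.03 RPKM in m6A libraries and 5.96 and 6.23 RPKM in inputs (log2 1.78 ± 0.25, limma adjusted p = 0.000266). Jun, a subunit of the AP-1 factor, had 68.4 and 49.8 RPKM in m6A libraries and 25.99 and 13.8 RPKM in inputs (log2 1.57 ± 0.33). At the low end, Btg2 (-0.22 ± 0.41), an antiproliferative gene, and Ier3 (-0.43 ± 0.30) were not called.

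Splicing factors went both ways, 8 of 30 higher and 16 lower (median -0.59; 10 and 10 with median-ratio scaling). Besides Snrnp70, Srsf11 had 78.4 and 75.4 RPKM in m6A libraries and 16.5 and 17.02 RPKM in inputs (log2 2.13 ± 0.14). Srsf3, of the same family, had 3.92 and 4.82 RPKM in m6A libraries and 18.7 and 24.1 RPKM in inputs (log2 -2.05 ± 0.16), and Tra2b stood at -1.65 ± 0.15. Srsf11 and Srsf3 thus lay on opposite sides of 0.

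Translation factors also split, with 4 of 35 higher and 22 lower (median -0.71; 7 and 15 with median-ratio scaling). Eif5b, which joins the ribosomal subunits, had 76.1 and 73.7 RPKM in m6A libraries and 14.1 and 13.96 RPKM in inputs (log2 2.34 ± 0.12). Eif3a stood at 1.86 ± 0.15. Eif3m, of the same initiation factor as Eif3a, had 4.93 and 3.97 RPKM in m6A libraries and 26.9 and 24.6 RPKM in inputs (log2 -2.30 ± 0.17), and the helicase gene Eif4a2 stood at -2.09 ± 0.16.

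Genes of energy metabolism and of protein synthesis lay low. All 22 reported genes of the tricarboxylic acid cycle were lower in the m6A libraries, with a median of -1.17, and 17 were under median-ratio scaling, against a background of 40.3% and 23.4% of all genes lower. Sdhd, which anchors succinate dehydrogenase in the membrane, had 10.6 and 14.2 RPKM in m6A libraries and 68.2 and 70.9 RPKM in inputs (log2 -2.41 ± 0.17, limma adjusted p = 7.03e-06). Idh3a stood at -1.98 ± 0.15. Dlst, of the oxoglutarate dehydrogenase complex, stood at -0.55 ± 0.10, and at -0.12 with median-ratio scaling, where it was not called (limma adjusted p = 0.399).

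Mitochondrial fatty acid oxidation had 23 of 25 genes lower and 0 higher (median -1.12; 16 lower with median-ratio scaling). Hadhb, of the trifunctional protein, had 22.8 and 30.5 RPKM in m6A libraries and 119 and 124 RPKM in inputs (log2 -2.16 ± 0.16), and Echs1, the enoyl-CoA hydratase gene, stood at -2.15 ± 0.20. Etfb (-0.39 ± 0.16) and Pdk4 (-0.64 ± 0.69), a kinase that holds back glucose oxidation, were not called, except with the replicate pairs as blocks (limma adjusted p = 0.00679 and 0.00129).

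Complex I subunits had 3 of 36 genes higher and 24 lower (median -0.74), and subunits of complexes II to V had 3 of 40 higher and 31 lower (median -1.26). With median-ratio scaling the lower counts were 17 and 27. Uqcrfs1 had 10.1 and 10.5 RPKM in m6A libraries and 97.7 and 99.4 RPKM in inputs, and Cox6c had 22.5 and 23.5 RPKM in m6A libraries and 159 and 253 RPKM in inputs. Ndufc1 and Ndufb5 of complex I stood at -2.33 and -2.27. A few subunits went the other way: Atp5k of the ATP synthase had 137 and 159 RPKM in m6A libraries and 78.8 and 69.9 RPKM in inputs (log2 0.98 ± 0.13), and Ndufb7, Ndufv3 and Uqcrh stood at 0.81, 0.78 and 0.79, all called.

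Cytosolic ribosomal proteins had 4 of 74 genes higher and 60 lower (median -1.24; 8 and 46 with median-ratio scaling). Rpl30 had 14.7 and 13.4 RPKM in m6A libraries and 150.3 and 183 RPKM in inputs, while Rpl41 had 814 and 753 RPKM in m6A libraries and 455 and 387 RPKM in inputs (log2 0.90 ± 0.14). Proteasome subunits had 3 of 31 higher and 20 lower (median -1.06; 6 and 16 with median-ratio scaling), from Psma5 at -2.18 ± 0.15 to Psma4 at 1.68 ± 0.17, both of the core particle's outer ring. Lysosomal genes had 0 of 32 higher and 26 lower (median -1.03), and 2 and 17 with median-ratio scaling. The lowest, Atp6v0e (-2.56 ± 0.39) and Atp6v0b (-2.53 ± 0.16), belong to the proton pump, and Tfeb, the factor that drives lysosomal genes, stood at 0.33 ± 0.18, not called, and at 0.71 with median-ratio scaling, where it was called (limma adjusted p = 0.00843).

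The mRNAs encoded by mitochondrial DNA, which are made outside the nucleus, were uneven: 4 of the 10 in the matrix were higher and 4 lower (median -0.32, and 0.12 with median-ratio scaling). mt-Co2 had 11538 and 12178 RPKM in m6A libraries and 6964 and 6623 RPKM in inputs (log2 0.80 ± 0.20, limma adjusted p = 0.00884). It lost its call in the 8 cold libraries alone (limma adjusted p = 0.0663) and in the 4 cKO cold libraries alone (0.203). Without a filter on low values it was not called either (limma adjusted p = 0.199). mt-Co1 had 4347 and 4825 RPKM in m6A libraries and 16423 and 16461 RPKM in inputs (log2 -1.84 ± 0.19). mt-Nd6 stood at -1.85 ± 0.20 and mt-Nd2 at 0.82 ± 0.25; mt-Nd2 lost its call without cKO cold input replicate 1 (log2 0.62, limma adjusted p = 0.12) and without cKO cold m6A replicate 2 (log2 0.68, limma adjusted p = 0.107). These mRNAs lie next to each other on both strands of 1 circle, and without a stated strand their reads may be shared.

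**Figure D3:**
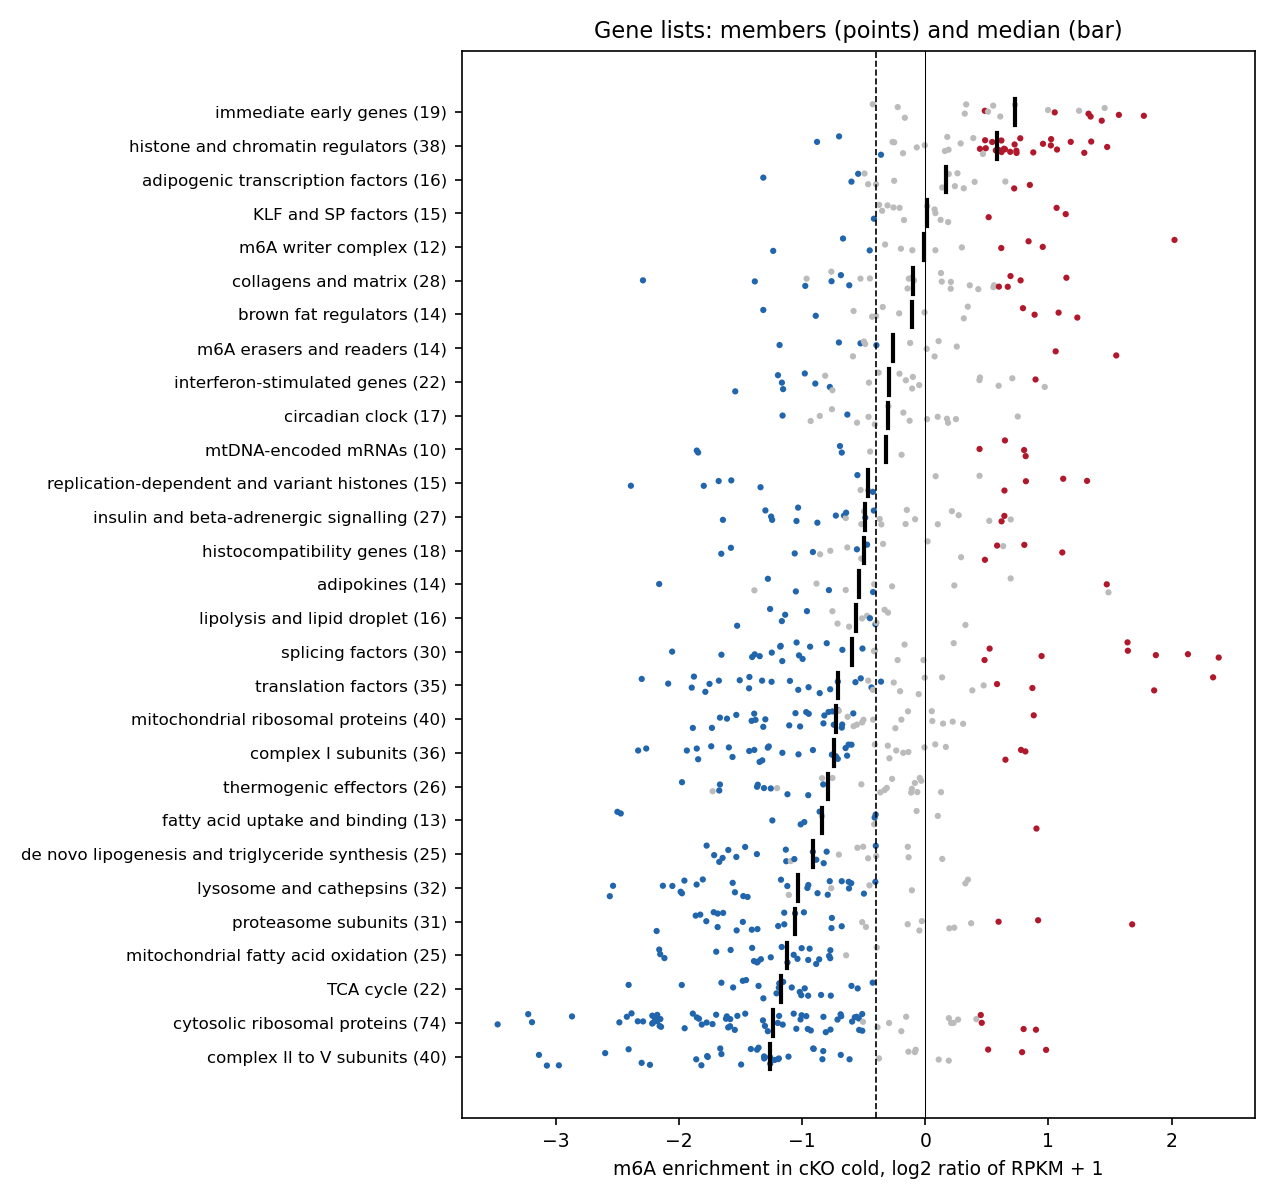
Each row is a gene list with the number of reported genes in brackets, each point a gene's log2 m6A enrichment in cKO cold (red called higher, blue called lower, grey not called) and each bar the list's median; the dashed line is the median of all genes, -0.40. Immediate early genes (0.73) and chromatin regulators (0.59) lie at the top, and complexes II to V (-1.26), cytosolic ribosomal proteins (-1.24) and the tricarboxylic acid cycle (-1.17) at the bottom.

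Klf9, the factor the series is about (chr19:23141226-23168129, GRCm38), was not called as enriched in the cold knockout. It had 45 and 30.6 RPKM in the m6A libraries and 38.6 and 31.99 RPKM in the inputs, which overlap, and a log2 enrichment of 0.08 ± 0.30 (limma adjusted p = 0.857). In WT cold it had 41.2 and 75.3 RPKM in m6A libraries and 28.8 and 47.99 RPKM in inputs (log2 0.57, limma adjusted p = 0.167), and in WT RT a log2 of 0.77. The difference of enrichment, cKO cold minus WT cold, was -0.49 ± 0.14 with replicate pairs as blocks (SE, limma adjusted p = 0.0988).

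Of 15 KLF and SP factors, 3 were higher and 1 lower (median 0.02), and median-ratio scaling gave 7 and 0. Klf4 had 45.98 and 30.6 RPKM in m6A libraries and 21 and 12.9 RPKM in inputs (log2 1.14 ± 0.32, limma adjusted p = 0.0146), and Klf2 stood at 1.07 ± 0.37. Klf4 lost its call without cKO cold input replicate 2 (log2 0.81, limma adjusted p = 0.11) and without cKO cold m6A replicate 1 (log2 0.86, limma adjusted p = 0.109), and Klf2 without cKO cold input replicate 2 (log2 0.66, limma adjusted p = 0.238) and without cKO cold m6A replicate 1 (log2 0.79, limma adjusted p = 0.204). The lowest were Sp3 at -0.42 ± 0.11, which was called but lay at 0.00 with median-ratio scaling, and Klf15 at -0.37 ± 0.52, which was called only with pairs as blocks (limma adjusted p = 0.02).

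Adipogenic transcription factors had 2 of 16 genes higher and 3 lower (median 0.17), against 11.6% and 40.3% of all genes. Under median-ratio scaling the balance turned, to 6 higher and 1 lower (median 0.59), against 22% and 23.4% of all genes. Pparg, the master regulator of adipocyte differentiation, had 41.03 and 50.7 RPKM in m6A libraries and 101 and 130.5 RPKM in inputs (log2 -1.31 ± 0.16, limma adjusted p = 0.000145). Its m6A libraries both lay below its inputs. Ebf1, an early B cell factor also needed for fat cells, stood at -0.60 ± 0.12 and at -0.17 with median-ratio scaling, no longer called. Tcf7l1 stood at 0.85 ± 0.17. Cebpb, an early adipogenic factor, had 101 and 145 RPKM in m6A libraries and 61 and 87.6 RPKM in inputs (log2 0.72 ± 0.26, limma adjusted p = 0.0404) but lost its call without cKO cold input replicate 1 (log2 0.47, limma adjusted p = 0.236) and without cKO cold m6A replicate 2 (log2 0.47, limma adjusted p = 0.25).

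Regulators of the brown fat programme had 4 of 14 genes higher and 2 lower (median -0.11), and under median-ratio scaling 6 higher and 1 lower (median 0.21). Prdm16, which specifies brown and beige fat, had 5.58 and 7.47 RPKM in m6A libraries and 2.60 and 4.15 RPKM in inputs (log2 0.79 ± 0.27, limma adjusted p = 0.0348) but lost its call without cKO cold input replicate 1 (log2 0.54, limma adjusted p = 0.197) and without cKO cold m6A replicate 2 (log2 0.61, limma adjusted p = 0.185). The coactivator gene Ppargc1b had 17.02 and 19.2 RPKM in m6A libraries and 5.19 and 9.64 RPKM in inputs (log2 1.24 ± 0.33), and lost its call without cKO cold input replicate 1 (log2 0.84, limma adjusted p = 0.0839) and without cKO cold m6A replicate 2 (log2 1.15, limma adjusted p = 0.0578). Its relative Ppargc1a had 2.48 and 2.97 RPKM in m6A libraries and 2.61 and 2.86 RPKM in inputs (log2 -0.01 ± 0.26, limma adjusted p = 0.994). Zbtb7b, a driver of brown fat development, stood at 1.08 ± 0.20 and Nrf1, a regulator of mitochondrial genes, at -0.89 ± 0.19, both called, Nrf1 not with median-ratio scaling.

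Thermogenic effectors had 0 of 26 genes higher and 10 lower (median -0.79; 7 lower with median-ratio scaling). These counts of lower genes are near the shares of all genes, 40.3% and 23.4%. Ucp1, the uncoupling protein of brown fat, had 25.4 and 1.96 RPKM in m6A libraries and 76.3 and 10.04 RPKM in inputs. Replicate 1 was far above replicate 2 in both fractions, so the log2 enrichment of -1.73 ± 1.08 was not called (limma adjusted p = 0.22), although the pairs gave -1.55 and -1.90 and the fit with pairs as blocks called it (adjusted p = 1.06e-05). Letmd1, a mitochondrial gene of brown fat, had 4.74 and 3.16 RPKM in m6A libraries and 20.2 and 16.4 RPKM in inputs (log2 -1.97 ± 0.22). Otop1 (-0.03 ± 0.25), a proton channel gene, and S100b (0.13 ± 0.43) were not called.

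Lipid genes included few higher calls. Lipolysis and lipid droplet genes had 0 of 16 higher and 7 lower (median -0.57), lipid synthesis 0 of 25 higher and 16 lower (median -0.91), and fatty acid uptake 1 of 13 higher and 8 lower (median -0.84). With median-ratio scaling the lower counts were 5, 8 and 4. Of all genes 40.3% were lower as deposited and 23.4% with median-ratio scaling, so the lower counts of lipolysis and droplet genes are near the background. With median-ratio scaling those of lipid synthesis and uptake genes are near it too. Abhd5, the activator of the lipase ATGL, had 28.8 and 29.98 RPKM in m6A libraries and 80.7 and 93.02 RPKM in inputs (log2 -1.53 ± 0.12, limma adjusted p = 1.11e-05). Fitm2, a gene of lipid droplet formation (chr2:163468703-163472629), had 24.7 and 23.9 RPKM in m6A libraries and 57.7 and 61.5 RPKM in inputs (log2 -1.26 ± 0.15). Cd36, the fatty acid translocase gene, had 138 and 135 RPKM in m6A libraries and 732 and 789 RPKM in inputs (log2 -2.47 ± 0.12), and Cav2, a caveolin gene, stood at -2.50 ± 0.25. Elovl5, a fatty acid elongase gene, stood at -1.77 ± 0.30.

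Some abundant adipocyte mRNAs lay close to 0. Fabp4, the adipocyte fatty acid carrier, had 5916 and 6308 RPKM in m6A libraries and 5316 and 6089 RPKM in inputs (log2 0.10 ± 0.17, limma adjusted p = 0.646). Gpd1 (-0.13 ± 0.22), of glycerol synthesis, and Mlxipl (0.14 ± 0.27), the factor ChREBP, were not called, nor were Pnpla2, the lipase ATGL (-0.30 ± 0.19), and Plin4, a droplet coat gene (0.33 ± 0.29). With pairs as blocks Pnpla2 was called lower (limma adjusted p = 0.0205) and Plin4 higher (adjusted p = 0.0123).

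Among 14 adipokine genes, 1 was higher and 5 were lower (median -0.53), and under median-ratio scaling 2 higher and 3 lower, near the shares of all genes. Metrnl, a secreted factor of muscle and fat, had 65.8 and 52.2 RPKM in m6A libraries and 22.6 and 18.5 RPKM in inputs (log2 1.47 ± 0.15). Rbp4, the retinol carrier, had 29.1 and 29.2 RPKM in m6A libraries and 155 and 115 RPKM in inputs (log2 -2.16 ± 0.23). Lep had 105 and 39.8 RPKM in m6A libraries and 245 and 119 RPKM in inputs, with pair ratios of -1.22 and -1.56. Angptl8 had 67.6 and 187 RPKM in m6A libraries and 31 and 50.2 RPKM in inputs. Replicates of Lep and Angptl8 differed widely, and both were called only with pairs as blocks (limma adjusted p = 6.08e-05 lower and 0.000145 higher). Collagens and matrix genes had 5 of 28 higher and 6 lower (median -0.10), and under median-ratio scaling 9 higher and 3 lower (median 0.33). They ran from Dcn, the proteoglycan decorin, at -2.29 ± 0.31 to Col6a2 at 1.15 ± 0.36. Col6a2 lost its call in the 8 cold libraries alone (limma adjusted p = 0.0725). Mat2a, an mRNA methylated by METTL16 in place of METTL3, had 9.09 and 11.8 RPKM in m6A libraries and 53.5 and 51.1 RPKM in inputs (log2 -2.23 ± 0.15, limma adjusted p = 5.46e-06).

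**Figure D4:**
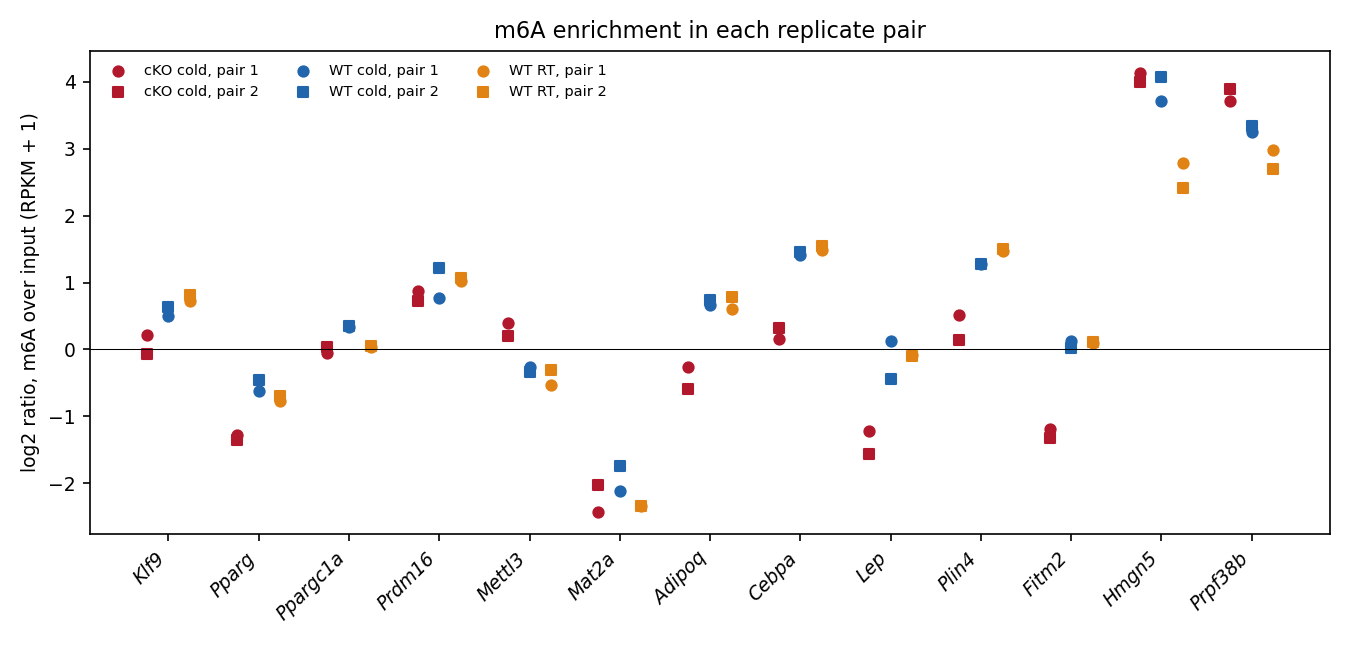
Points show the log2 ratio of m6A over input (RPKM + 1) for 13 genes in each replicate pair, circles for pair 1 and squares for pair 2, with cKO cold in red, WT cold in blue and WT RT in orange. In cKO cold, Klf9 (0.22 and -0.06), Pparg, Adipoq (-0.26 and -0.59), Cebpa, Lep, Plin4 and Fitm2 lie below both WT conditions. Hmgn5 and Prpf38b lie high in all 3.

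The pattern of enrichment was largely that of the wild type in the cold. Under the same 11257 genes, 1702 (15.1%) were higher and 3286 (29.2%) lower in WT cold. Genes higher in both numbered 1062, which is 81.4% of the cKO cold genes and 62.4% of the WT cold genes, and genes lower in both numbered 3059, or 67.5% of the cKO cold genes and 93.1% of the WT cold genes. Across genes the 2 enrichments correlated at Pearson's r = 0.886, as a description over 11257 genes, which share the libraries of each condition. In the opposite directions, 24 genes were lower in cKO cold and higher in WT cold, and 0 the other way round. These are calls in the deposited scaling, where the median gene stood at -0.40 in cKO cold and -0.17 in WT cold. The split of 24 and 0 leans on that offset, and no such count is given with median-ratio scaling. Genes were kept by their cKO cold input, the denominator of the cKO cold ratio. Of the 11257, 10054 met the same limit in WT cold. Zfp235 and Slc4a11, among the 24, had WT cold inputs of 0.718 and 0.599 RPKM and of 0.180 and 0.562 RPKM. Such a choice can favour a lower ratio in cKO cold, and its part in these counts was not tested.

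The difference itself was tested as an interaction. Without pairing, 0 genes were called by limma, with 1225 at an unadjusted p under 0.05 (1125 lower and 100 higher in cKO cold) and a smallest adjusted p of 0.0672. Replicate numbers paired input with m6A libraries within each condition, and with pairs as blocks 396 genes (3.52%) had a lower enrichment in cKO cold and 5 (0.0444%) a higher one. The median gene differed by -0.17, and with median-ratio scaling and pairs as blocks 62 (0.551%) were lower and 5 (0.0444%) higher, all 62 among the 396. Counts of lower genes thus depend on the block and on the scaling, and the genes were kept by their cKO cold input alone.

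The 24 genes in opposite directions were chosen by their calls, so their differences are a description: 22 passed the threshold with pairs as blocks, and 11 with pairs as blocks and median-ratio scaling. Those named here were looked up after their values were seen. Klb, the co-receptor for the hormone FGF21, stood at -1.29 in cKO cold and 0.58 in WT cold, Lipt1, a lipoate transferase gene, at -0.98 in cKO cold and 0.90 in WT cold, and Mlycd, malonyl-CoA decarboxylase, at -0.60 in cKO cold and 0.73 in WT cold. Ythdf2, the reader that sends m6A-marked mRNA to decay, stood at -0.40 in cKO cold, level with the median gene there, and at 0.50 in WT cold. Its difference passed with pairs as blocks but not with median-ratio scaling as well (limma adjusted p = 0.101). Adipoq (chr16:23146536-23157968, GRCm38), the gene whose promoter drives Cre here, was among them.

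Adipoq had 518 and 482 RPKM in m6A libraries and 621 and 724 RPKM in inputs of cKO cold, against 794 and 790.3 RPKM in m6A libraries and 498 and 471 RPKM in inputs of WT cold. The pair ratios were -0.26 and -0.59 in cKO cold and 0.67 and 0.74 in WT cold, on either side of 0. The difference was -1.13 ± 0.13 with pairs as blocks (SE, limma adjusted p = 0.00933; 0.0349 with median-ratio scaling as well). The depletion within cKO cold (-0.42 ± 0.13, limma adjusted p = 0.0186) was lost without cKO cold input replicate 2 (log2 -0.31, limma adjusted p = 0.114) and without cKO cold m6A replicate 2 (log2 -0.37, limma adjusted p = 0.0894), and stood at 0.01 with median-ratio scaling.

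Of the cell type lists, the adipocyte markers had the most lower calls in the difference. Of 20 adipocyte markers, 18 had a lower enrichment in cKO cold than in WT cold, with a median difference of -0.47 against -0.17 for all genes, and 8 were called lower with pairs as blocks, 5 of them also with median-ratio scaling, against backgrounds of 3.52% and 0.551%. The median enrichment of the 20 was -0.70 in cKO cold and -0.14 in WT cold, with 0 higher and 9 lower in cKO cold (1 and 3 with median-ratio scaling). Besides Adipoq the 8 were Lep, Pparg, Acsl1, Tshr, Ghr, Lipe and Cebpa.

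Cebpa, which holds adipocytes in the differentiated state (chr7:35119293-35121928), had 225 and 236 RPKM in m6A libraries and 201 and 189 RPKM in inputs of cKO cold, against 295 and 393 RPKM in m6A libraries and 110.2 and 143 RPKM in inputs of WT cold. Its enrichment was 0.24 in cKO cold, 1.43 in WT cold and 1.52 in WT RT, and it was called higher within cKO cold with pairs as blocks (limma adjusted p = 0.0156). The difference was -1.19 ± 0.10 between the cold groups (pairs as blocks, limma adjusted p = 0.00722). Fitm2 had 50.8 and 62.01 RPKM in m6A libraries and 46.3 and 61.1 RPKM in inputs of WT cold, and its difference was -1.34 ± 0.12 (limma adjusted p = 0.00788). Plin4 had pair ratios of 0.51 and 0.15 in cKO cold and 1.28 and 1.28 in WT cold, a difference of -0.96 ± 0.12 (limma adjusted p = 0.0127). Pparg differed by -0.78 ± 0.11, Cebpb by -0.93 ± 0.14, Lep by -1.24 ± 0.19 and Abhd5 by -0.78 ± 0.12, all called with pairs as blocks.

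Other lists that hold adipocyte genes had these lower calls with pairs as blocks, against 3.52% of all genes: 5 of 16 for lipolysis and lipid droplets, 5 of 25 for lipid synthesis, 5 of 26 for thermogenic effectors and 4 of 14 for adipokines. With median-ratio scaling as well they had 1, 1, 2 and 1, against 0.551% of all genes. These lists share members with the adipocyte markers. Lists of other roles also held lower calls with pairs as blocks: mitochondrial ribosomal proteins had 6 of 40, insulin and beta-adrenergic signalling 4 of 27, circadian clock genes 3 of 17, fatty acid uptake 3 of 13 and adipogenic factors 3 of 16, and with median-ratio scaling as well 1, 0, 1, 0 and 1. The tricarboxylic acid cycle had 0 of 22, complex I 0 of 36, splicing factors 0 of 30, immediate early genes 0 of 19 and chromatin regulators 1 of 38.

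Markers of other cell types differed in where they lay. The median difference was 0.00 over 22 macrophage markers, -0.05 over 15 endothelial markers and 0.04 over 16 fibroblast and preadipocyte markers, with 0, 0 and 0 called lower with pairs as blocks. The smaller lists lay lower: the median difference was -0.52 over 2 T and B cell markers, -0.44 over 5 red blood cell markers, -0.31 over 8 neutrophil and mast cell markers, -0.15 over 9 Schwann cell and nerve markers and -0.09 over 4 skeletal muscle markers, with 0 called in any of the 5. The T and B cell and red blood cell medians were thus as low as, or close to, that of the adipocyte markers, over few reported genes. Only Cd14, a monocyte receptor for bacterial lipopolysaccharide, was called higher among the cell type markers: it had 12.6 and 10.6 RPKM in m6A libraries and 6.89 and 3.60 RPKM in inputs of cKO cold, against 0.702 and 6.16 RPKM in m6A libraries and 3.72 and 7.11 RPKM in inputs of WT cold. Within cKO cold it was called higher only with pairs as blocks (limma adjusted p = 0.0108), and its WT cold m6A libraries lay far apart.

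Summed markers moved with genotype. Macrophage markers summed to 4125 and 3836 RPKM in the cKO cold inputs, against 1548 and 1865 in the WT cold inputs. The adipocyte markers summed to 15274 and 15964 in cKO cold inputs, against 19977 and 20846 in WT cold inputs. Lpl stands in both of these lists, so both sums include it. Fibroblast and preadipocyte markers summed to 2617 and 1312 RPKM in cKO cold inputs and 693 and 476 in WT cold inputs, while endothelial markers were nearer, at 511 and 558 in cKO cold and 409 and 417 in WT cold. The mRNAs of mitochondrial DNA summed to 65386 and 69195 RPKM in cKO cold inputs, against 161883 and 144551 in WT cold inputs. Skeletal muscle markers summed to 432 RPKM in the m6A library and 289 in the input of cKO cold replicate 2, against 12.3 and 31.7 in replicate 1, and to 11.4 to 42.2 RPKM in the WT cold libraries. The part of these shifts in the differences of enrichment was not tested.

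**Figure D5:**
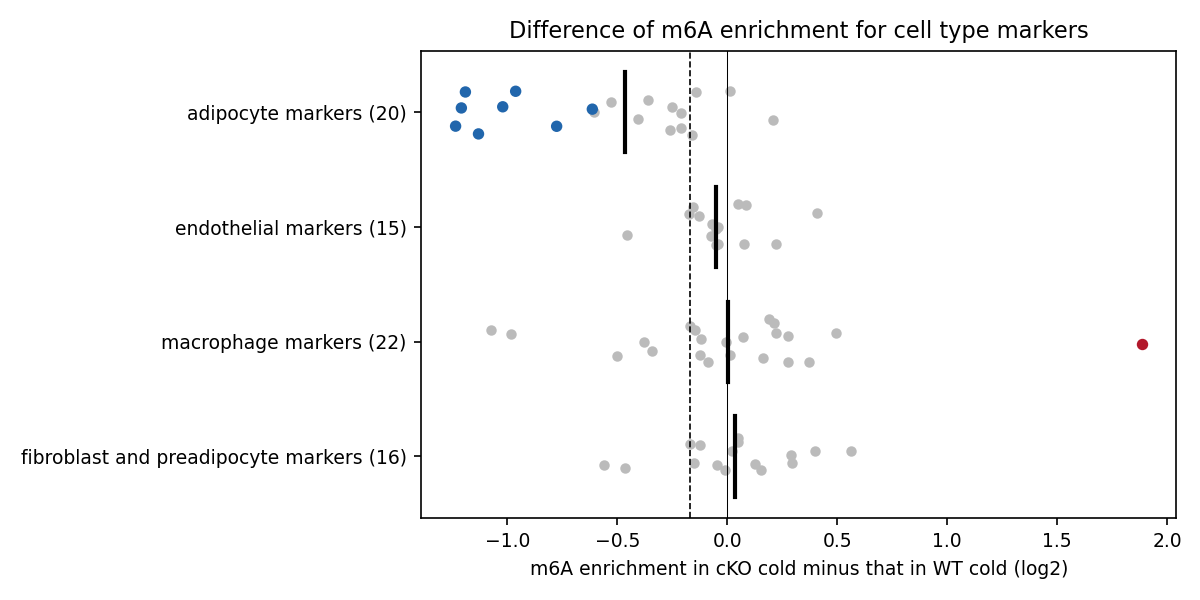
Points show, for the markers of 4 cell types with the number of genes in brackets, the m6A enrichment in cKO cold minus that in WT cold (log2), coloured where called with pairs as blocks (blue lower, red higher), with a bar at the median and a dashed line at the median of all genes, -0.17. The adipocyte markers sit mostly left of the line with 8 in blue, and the other 3 groups are spread around 0 with Cd14 alone in red.

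Within the knockout's own enrichment, the macrophage markers had 3 of 22 higher and 9 lower (median -0.58), close to the shares of all genes, and 3 higher and 6 lower under median-ratio scaling. Adgre1, the F4/80 antigen, had 9.21 and 2.39 RPKM in m6A libraries and 47.8 and 17.6 RPKM in inputs (log2 -2.36 ± 0.50, limma adjusted p = 0.00326), and Cd9, a tetraspanin gene, stood at -2.11 ± 0.23. Fcgr1, an antibody receptor gene, had 6.64 and 9.32 RPKM in m6A libraries and 3.85 and 2.88 RPKM in inputs (log2 1.03 ± 0.22). Endothelial markers had 3 of 15 higher and 6 lower (median -0.30; under median-ratio scaling 3 higher and 1 lower, median 0.12), with Cldn5 of tight junctions at 1.31 ± 0.38 and Cdh5 of adherens junctions at 0.75 ± 0.20. Both lost their calls when single cKO cold libraries were left out, Cldn5 without cKO cold input replicate 1 (log2 1.23, limma adjusted p = 0.0706) and without cKO cold m6A replicate 1 (log2 1.36, limma adjusted p = 0.0552) and without cKO cold m6A replicate 2 (log2 1.26, limma adjusted p = 0.0722), and Cdh5 without cKO cold input replicate 1 (log2 0.53, limma adjusted p = 0.0785) and without cKO cold m6A replicate 2 (log2 0.45, limma adjusted p = 0.0847). Fibroblast and preadipocyte markers had 1 of 16 higher and 4 lower (median -0.14; under median-ratio scaling 2 higher and 4 lower, median 0.30), among them Ly6a, a surface antigen of preadipocytes, at -1.77 ± 0.16.

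Enrichment varied weakly with transcript length. In 5 bins of 2250 to 2252 genes, from short to long by the length that the RPKM values imply, the median enrichment was -0.61, -0.45, -0.37, -0.32 and -0.27, with Spearman's rho of 0.133 over 11257 genes as a description. The share of genes higher was 8.70% in the shortest bin and 14.5% in the longest. With median-ratio scaling the medians of the bins were -0.23, -0.08, -0.01, 0.04 and 0.09. The gene lists differed in length: the median was 8144.5 bases for chromatin regulators, 2553 for immediate early genes, 896 for cytosolic ribosomal proteins and 787 for complexes II to V. Over all genes it was 3010 bases, and the part of length in the list counts was not tested. Genes whose transcript nearly fills the gene, with a length of 0.9 to 1.1 of the RefSeq gene span and so little or no intron, numbered 199. Their median was 0.01, with 20.1% higher and 16.6% lower, against 11.02% higher and 43.7% lower among the 4639 genes whose transcript takes up to 0.1 of the span. By level in the WT cold inputs, the median enrichment in cKO cold was -0.21 in the lowest of 5 bins and -0.73 in the highest. With median-ratio scaling these medians were 0.10 and -0.30. The lowest bin runs up to 2.38 RPKM, and the added 1 RPKM shrinks the ratios of low genes.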

How the data were processed

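Adipose tissue RNA before (input) and after capture with an m6A antibody was sequenced, 2 libraries per condition. The deposited values are RPKM made by the authors, 1 matrix of 17883 genes; the processing notes of the submitters name HISAT2 and mm10 but no version. The counting tool and annotation are not given in the sources used here. All value columns were mapped to samples and 0 were left out. Of the identifiers, 17871 matched the gene tables, and 25 symbols that had become dates were restored. Positions come from RefSeq (GRCm38.p6). Read totals per library were recovered from the steps of the RPKM values. With a short search, 197 of 200 genes came out whole within about 0.001 read, against 0 of the same 200 with each value scaled at random.

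The test was limma 3.58.1 (R 4.3.3; eBayes with trend, two-sided) of log2(RPKM + 1) over the 12 input and m6A libraries, with 6 residual degrees of freedom and genes at 1 RPKM or more in at least 2 libraries (13062 genes). The Benjamini-Hochberg adjustment runs over those genes, errors are standard errors, and the threshold is 0.05. The added 1 RPKM shrinks the ratios of low genes. The difference between conditions was tested as an interaction. The model was tested on simulated data. Deviations of input and m6A libraries with the same number correlated at 0.412 (WT RT), 0.555 (WT cold) and 0.462 (cKO cold) over 13062 genes, so the numbers were taken to pair libraries, from the data and not the labels. Values with pairs as blocks stand where they change a call.

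Genes were named by rule: the 12 highest and 12 lowest called genes with a mean input of at least 5 RPKM, the 2 highest and 2 lowest members of each described list (some of which are not reported here), 10 fixed genes (of which Malat1 was not analysed here), and the 6 genes with the largest difference downward and all 5 upward, taken from the fit with pairs as blocks because the fit without them called none. Genes, lists and tests were chosen with earlier results of these data known. Figures were drawn with matplotlib 3.10.9 under Python 3.11.15.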

Additional observations from a re-analysis of the deposited data

Results flagged for a closer look

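In 24 of the 136 named genes the m6A enrichment differed between cKO cold and WT cold by an interaction test with replicate pairs as blocks (limma, adjusted p under 0.05), 19 lower and 5 higher in cKO cold. None was called without the blocks. Of the 24, 11 were named by a rule that uses this test, so the count is no measure of how common such genes are: over all 11257 genes 396 (3.52%) were lower and 5 (0.0444%) higher. Values are log2 differences, cKO cold minus WT cold.

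Among adipocyte and lipid genes, the difference was -1.34 for Fitm2, -1.24 for Lep, -1.19 for Cebpa, -1.13 for Adipoq, -0.96 for Plin4, -0.93 for Cebpb, -0.91 for Klf15, -0.78 for Abhd5, -0.78 for Pparg and -0.48 for Gpd1. With median-ratio scaling as well, Fitm2 (adjusted p = 0.0263), Cebpa (0.0252) and Adipoq (0.0349) were still called by limma, and the other 7 were not. Among genes of other roles, the difference was -1.26 for Uqcrfs1 (adjusted p = 0.0318 with median-ratio scaling, limma), -0.78 for Arl6ip1 and -0.68 for Rbm15.

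The 6 largest differences downward were -2.34 for Aadac, an esterase gene, -2.04 for Med11 of Mediator, -2.0032 for Ankrd9, -1.99 for the histone gene H3c4, -1.98 for Mterf4, a mitochondrial ribosome assembly factor, and -1.89 for Tmem267. Aadac had 0.298 and 0.712 RPKM in m6A libraries and 4.69 and 10.7 RPKM in inputs of cKO cold, against 0.249 and 0 RPKM in m6A libraries and 0.0871 and 0.339 RPKM in inputs of WT cold, and H3c4 had 1.11 and 0.453 RPKM in m6A libraries and 4.97 and 4.52 RPKM in inputs of cKO cold, against 0.659 and 0.747 RPKM in m6A libraries and 0.277 and 0.539 RPKM in inputs of WT cold. For both genes the WT cold values lie below 1 RPKM, where the added 1 RPKM holds ratios near 0.

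The 5 differences upward were 1.89 for Cd14, 1.23 for Snrnp48, a protein of the minor spliceosome, 1.0999 for Snx20, 0.99 for Trim12a and 0.67 for Chpt1, a choline phosphotransferase. Snrnp48 had 9.85 and 9.61 RPKM in m6A libraries and 2.73 and 3.60 RPKM in inputs of cKO cold, against 5.16 and 7.67 RPKM in m6A libraries and 4.78 and 6.54 RPKM in inputs of WT cold. Its cKO cold pairs (1.54 and 1.21) lay above its WT cold pairs (0.09 and 0.20). The enrichment of Snx20 within cKO cold was not called without cKO cold input replicate 2 (log2 0.74, limma adjusted p = 0.0796) and without cKO cold m6A replicate 1 (log2 0.92, limma adjusted p = 0.0994), nor that of Trim12a without cKO cold input replicate 2 (log2 0.48, limma adjusted p = 0.066) and without cKO cold m6A replicate 1 (log2 0.53, limma adjusted p = 0.0601).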

How the results depend on the processing

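Other scalings moved the balance of calls: 2474 higher and 2635 lower with median-ratio scaling (48.4% of calls higher, against 22.3% as deposited), 2467 and 2808 with quantile scaling (46.8%), and 2351 and 2812 with scaling outside mitochondrial mRNAs, Lars2 and Gm20594 (45.5%). With replicate pairs as blocks the counts were 1834 and 5403, and with blocks and each scaling the higher counts were 3250, 3158 and 3150. The 8 cold libraries alone gave 993 higher and 3766 lower genes, and the 4 cKO cold libraries alone 882 and 3299. In these fits 12 and 20 of the 136 named genes lost their calls. With the 4 cKO cold libraries the 20 included Gas1, Adgre1 and Tcf7l1 (limma adjusted p = 0.0563, 0.0692 and 0.0517). The difference of cKO cold and WT cold gave 0 genes without blocks under the other settings, except 1 lower without a filter on low values and 6 lower without WT cold input replicate 1. With the block it gave 396 lower and 5 higher, with block and scaling 62 and 5 (median-ratio), 99 and 6 (quantile), and 181 and 4 (outside mitochondrial mRNAs, Lars2 and Gm20594); these combined settings were chosen after seeing the data. Leaving out 1 library gave 990 to 1400 higher and 3662 to 4709 lower genes, and 0 to 6 lower and 0 higher differences. Mettl3 input differed by -0.89 to -0.16 with 1 library left out, and by -0.99 with quantile scaling, then called (limma adjusted p = 0.0473); the block could not be fitted there. The causes were not tested.

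Enrichments of these genes changed sign. With median-ratio scaling, with or without the block, Adipoq was at 0.0134, Btg2 0.17, Etfb 0.0412, Gpd1 0.30, Klf15 0.0371, Mettl14 0.25, Otop1 0.29, Pnpla2 0.13, Ppargc1a 0.31 and Sp3 0.00238. With quantile scaling, with or without the block, Btg2 was at 0.17, Etfb 0.0661, Gpd1 0.37, Mettl14 0.30, Otop1 0.36, Pnpla2 0.11 and Ppargc1a 0.37. With scaling outside mitochondrial mRNAs, Lars2 and Gm20594, Btg2 was at 0.14, Etfb 0.000974, Gpd1 0.26, Mettl14 0.22, Otop1 0.26, Pnpla2 0.0943 and Ppargc1a 0.29. With 1 library left out, the ranges were -0.31 to 0.0417 for Gpd1, -0.19 to 0.35 for Klf9, -0.28 to 0.0756 for Mettl14, -0.17 to 0.77 for Mettl3, -0.0823 to 0.36 for Mlxipl, -0.28 to 0.21 for Otop1, -0.61 to 0.00596 for Pnpla2, -0.10 to 0.0916 for Ppargc1a and -0.55 to 0.81 for S100b. Count tests on the recovered reads (edgeR and DESeq2), planned as alternatives, were not run. Beside the genes named above, the block also made calls for Atp6v1e1, Loxl1, Med11 and Ankrd9 (limma adjusted p = 0.0329, 0.000912, 0.0087 and 0.0273), and it changed no other call of a named gene within cKO cold.

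With 2 libraries per group and 3895031 to 8673393 reads per library, low genes are read from few reads, and missing the threshold does not show that a gene was alike.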

Other observations

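The 3 most depleted genes of the cold knockout lay near 0 at room temperature. In WT RT, Xkrx had 6.26 and 8.54 RPKM in m6A libraries and 5.30 and 5.21 RPKM in inputs (log2 0.41), Tmem38b had 9.40 and 15.2 RPKM in m6A libraries and 9.06 and 11.6 RPKM in inputs (log2 0.21), and Rnf225 had 0.593 and 0.316 RPKM in m6A libraries and 0.956 and 0.876 RPKM in inputs (log2 -0.40), all under 1 RPKM. Their enrichments were -5.91, -5.17 and -4.02 in cKO cold, against -4.30, -4.28 and -3.24 in WT cold. In the cold inputs Xkrx was high and uneven, at 109.9 and 63.01 RPKM in cKO cold and 10.8 and 57.1 RPKM in WT cold. Of 118 genes at -2 or less in both cold conditions, 4 lay above -0.5 in WT RT, these 3 and Klkb1 (-2.44 in cKO cold, -2.31 in WT cold and -0.13 in WT RT). The limits were set after seeing the values, and cold and library code series cannot be told apart.

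Gene families were also counted by symbol, chosen after values were seen. Their counts are to be read against all genes, of which 11.6% were higher and 40.3% lower as deposited. With median-ratio scaling these shares were 22% and 23.4%. Of 291 zinc finger genes named Zfp, 45 were higher and 53 lower (median -0.05), and 86 and 23 with median-ratio scaling (median 0.27). Of 182 Slc transporter genes 7 were higher and 100 lower (median -0.70; 15 and 62 with median-ratio scaling), of 149 Tmem genes 4 and 86 (median -0.85; 11 and 64), and of 19 Atp6 proton pump genes 0 and 15 (median -1.48; 2 and 12). RNA-binding Rbm genes had 10 of 30 higher and 4 lower (median 0.19; 15 and 3 with median-ratio scaling). All 3 Anp32 genes were higher, as were 3 of 4 Upf genes of nonsense-mediated decay, where Upf3b had 28.6 and 30.6 RPKM in m6A libraries and 5.11 and 6.79 RPKM in inputs. Olfactory receptor genes, reported for 41 of 437, had 3 higher and 28 lower (median -0.94; 4 and 21 with median-ratio scaling). These medians keep their sign with median-ratio scaling except that of Zfp.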
